A study of Camelus dromedarius with 4 samples.

Results

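The genes described here are 10 genes of the neuronal cytoskeleton and of axon growth in the supraoptic nucleus of the dromedary camel, a hypothalamic nucleus whose large neurons make vasopressin and oxytocin. They are the neurofilament subunits NEFL, NEFM and NEFH, the related filament protein INA, the microtubule-associated proteins MAP2 and MAPT, the neuronal tubulin TUBB3, the growth-associated genes STMN2 and GAP43, and the neuronal enolase ENO2. They were chosen by name from the deposited table of 18152 gene symbols, with the mean level of each season in view, so the season difference of a member is given as a description and was not tested. The table gave season means for 16053 symbols, and for 9 of the 10 members. STMN2 was among the 2099 symbols listed without a mean in either season, and no value is given for it.

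RNA was sequenced from the supraoptic nucleus of adult, age-matched, male dromedaries of the Tergui breed in winter and in summer, with 2 libraries a season (winter replicates 2 and 3, summer replicates 1 and 2). The season is the only factor that the labels name. The winter animals and the summer animals were slaughtered at different places in Algeria, so season, place and animal cannot be told apart. The libraries held 4379162 to 6902037 reads on 64989 gene models. Summer replicate 2 had at least 1 read on 40178 of these models and the other libraries on 49320 to 52456. It held 5520242 reads, more than the 4406533 of summer replicate 1, so the summer libraries were unlike in the models they detected. The gene models carry no gene names in the count files, and the named genes were therefore read from the table. In bulk tissue, fewer cells of a type and less RNA per cell cannot be told apart.

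Neurofilaments are the intermediate filaments of neurons. They are built from the light, medium and heavy subunits, mostly together with alpha-internexin, the product of INA, and they fill large axons and help to set their calibre. Microtubules of neurons carry MAP2 in dendrites and tau, the product of MAPT, in axons, and TUBB3 is a beta-tubulin isotype largely restricted to neurons. GAP43 and STMN2 are high in growing and regenerating axons, and ENO2 is the enolase isoform of mature neurons. The large neurons of the supraoptic nucleus send their axons to the posterior pituitary.

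Most members had a higher mean in winter than in summer. The mean was higher in winter for 8 of 9 members, where 46.2% of the 13811 symbols that reached a mean of 10 in either season were higher in winter. The medium and heavy neurofilament subunits stood furthest apart between the seasons, and MAP2 had nearly equal means. The median log2 ratio of the season means, winter over summer, was 0.32 over the members and -0.036 over all 13811 symbols. Of the members, 3 were more than 1.5-fold higher in winter (10.1% of all symbols) and 2 more than 2-fold higher (2.72% of all symbols), and none was more than 1.5-fold lower (12.1% of all symbols) or 2-fold lower (4.53%). Since the members were chosen with these means in view, nothing is read from these shares.

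**Figure D1:**
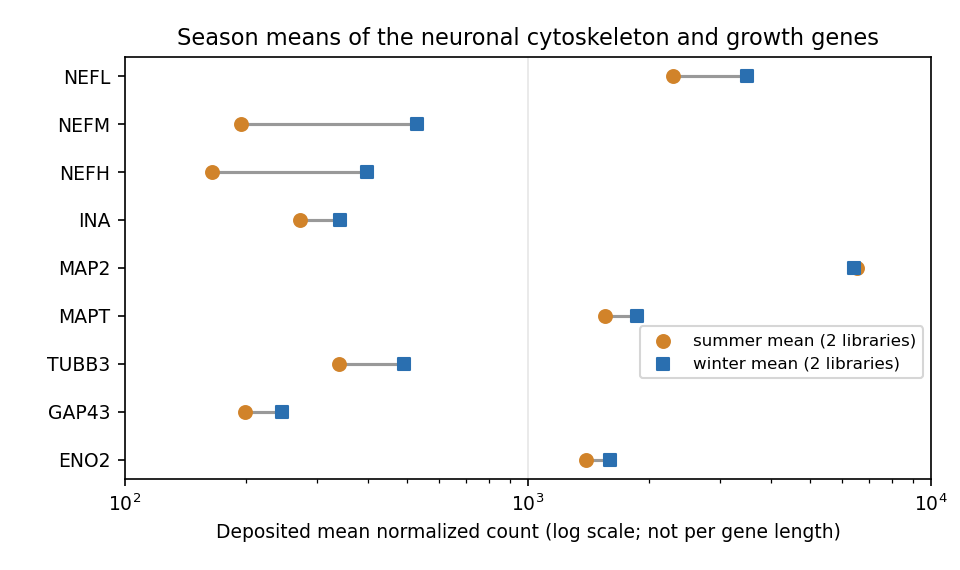
Deposited season means of the 9 measured members, as normalized read counts on a log axis, with a circle for the mean of the 2 summer libraries and a square for the mean of the 2 winter libraries. The gap is widest for NEFM (194.39 in summer, 531.07 in winter) and NEFH (164.477 and 398.867), and the symbols of MAP2 nearly coincide; positions of different genes on the axis are not comparable, since the counts are not per gene length.

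Among the neurofilament subunits, NEFM, the medium subunit, had a mean normalized count of 194.39 in summer and 531.07 in winter, a ratio of 2.73 (log2 1.45). Its ratio was the 99th highest of 13811 symbols. NEFH, the heavy subunit, whose long tail carries the phosphorylation sites that space the filaments, had means of 164.477 and 398.867, a ratio of 2.43 (log2 1.28). NEFL, the light subunit and the core of the filament, had means of 2287.96 and 3492.65, a ratio of 1.53 (log2 0.61). INA, the internexin partner, had means of 272.585 and 340.921, a ratio of 1.25 (log2 0.32). The order of the season ratios was thus NEFM, NEFH, NEFL and INA.

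The subunits did not differ between the seasons by equal amounts. The ratio of NEFM to NEFL was 1.79-fold higher in winter than in summer, and that of NEFH to NEFL 1.59-fold higher. NEFM and NEFH kept nearer to each other, with a ratio that was 1.13-fold higher in winter. The ratio of INA to NEFL was 0.819 times its summer value in winter, and that of INA to NEFM 0.458 times. These are ratios of season means and do not say how far apart the libraries of a season were.

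NEFM and NEFL are neighbouring genes in RefSeq's annotation of the dromedary assembly mCamDro1.pat, with no protein-coding gene between them. Their flanking neighbours there are ADAM7 and DOCK5. RefSeq listed 9 of the 10 members under the same symbol, and TUBB3 was the one without a match.

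The microtubule genes had smaller season differences than the medium and heavy neurofilament subunits. MAP2, a dendritic microtubule stabiliser, had means of 6540.38 in summer and 6437.89 in winter (log2 ratio -0.023), and this sign turned to 0.014 when the median ratio of all symbols was set to 0. MAPT, which encodes tau, had means of 1549.76 and 1859.83 (log2 ratio 0.26). TUBB3 had means of 339.542 and 491.858 (log2 ratio 0.53). Relative to MAP2, the winter value was 1.47-fold the summer value for TUBB3, 1.22-fold for MAPT and 1.55-fold for NEFL. Beta-tubulins are near-identical over much of their coding sequence, so the split of reads between TUBB3 and its paralogs is uncertain.

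GAP43, a phosphoprotein of growth cones, had means of 198.37 in summer and 245.286 in winter (log2 ratio 0.31). ENO2, a glycolytic enzyme used as a marker of neurons, had means of 1395.48 and 1596.43 (log2 ratio 0.19). Its widely expressed counterpart ENO1 had a log2 ratio of 0.16, with means of 961 and 1076.

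The season means hide how far apart the libraries of a season were, and the means could be opened up in part. Each deposited mean averages 2 whole read counts, each divided by the size factor of its library, so the pairs of whole reads that give a mean to its 6 digits could be listed. In the text that follows, A is the library of a season with the larger size factor (0.922 in summer, 1.33 in winter). B is the one with the smaller (0.877 and 0.946). Size factors from the count files were 1.27 for winter replicate 2 and 0.901 for winter replicate 3. By size factor alone, winter library A thus goes with replicate 2 and B with replicate 3. For summer the count files gave 0.909 for replicate 1 and 0.986 for replicate 2. By the same rule summer library A would go with replicate 2 and B with replicate 1. The summer size factors lie close together, so this pairing was not settled. For NEFM, NEFH, INA, TUBB3 and GAP43, summer had 1 solution and winter 2 or 3, all of which are given. For NEFL, MAP2, MAPT and ENO2, 45 to 212 solutions in summer and 80 to 325 in winter fitted, so their libraries could not be compared.

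NEFM was far apart between the winter libraries. In summer it had 101 reads in library A and 245 in library B, or 110 and 279 normalized reads. In winter it had either 135 and 908 reads (102 and 960 normalized) or 1238 and 121 reads (934 and 128 normalized). In either case 1 winter library held more NEFM than both summer libraries and the other lay below the summer mean of 194.39. The winter libraries were 7.30- or 9.43-fold apart. The summer libraries were 2.55-fold apart.

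The winter mean of NEFM therefore rested on 1 library. Without the higher winter library, the log2 ratio of winter over summer was -0.93 or -0.60, in place of 1.45. Of 6514 symbols with at most 3 winter solutions and a winter mean of at least 100, NEFM was the only 1 whose winter libraries were at least 7-fold apart in every solution (0.0154%). Symbols with lower winter means, from 50 to 100, could be checked with single solutions, and there 4 of 2411 were at least 7-fold apart (0.166%). The 95th percentile of the fold between the winter libraries was 2.35 in that group. This distance was looked at after the solutions of NEFM were seen, and the 7-fold cutoff lies just under the 7.30-fold of NEFM itself. Nothing is therefore read from these shares.

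NEFH gave a different picture. It had 111 and 183 reads in summer libraries A and B (120 and 209 normalized). The 3 winter solutions were 519 and 384 reads (392 and 406 normalized), 704 and 252 reads (531 and 267 normalized), and 889 and 120 reads (671 and 127 normalized). In 2 of the 3 solutions the winter libraries were both higher than either summer library, and in the third the lower winter library lay between them. Of 4497 symbols with 2 or 3 winter solutions and 1 in summer, 21.4% had such a separation in at least 1 solution and 1.6% in every solution. Leaving out 1 library at a time moved the log2 ratio of NEFH between -0.37 and 2.03 over all solutions, and the negative value came from the third solution without winter library A.

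The ratio of NEFM to NEFH reads was 0.910 in summer library A and 1.34 in library B. In winter, over the 6 combinations of solutions, it lay between 0.152 and 7.57 and was closest between libraries at 1.39 in A and 1.01 in B. The seasonal nearness of these subunits in their means was thus not shown to hold in each library.

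INA had 179 and 308 reads in summer libraries A and B (194 and 351 normalized). In winter it had 535 and 263 reads (404 and 278 normalized) or 720 and 131 reads (543 and 139 normalized). Winter library A was above both summer libraries and winter library B was not, in either solution. The log2 ratio lay between -0.98 and 1.00 when 1 library at a time was left out.

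TUBB3 had 169 and 435 reads in summer libraries A and B (183 and 496 normalized). In winter it had 701 and 430 reads (529 and 455 normalized), 886 and 298 reads (669 and 315 normalized) or 1071 and 166 reads (808 and 176 normalized). Winter library A was highest in each solution, and winter library B stayed below summer library B. The seasons overlapped in every solution, and without 1 library the log2 ratio lay between -0.95 and 1.42.

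GAP43 had 163 and 193 reads in summer libraries A and B (177 and 220 normalized), the closest summer pair of the 5 genes. In winter it had 353 and 212 reads (266 and 224 normalized) or 538 and 80 reads (406 and 84.6 normalized). Both winter libraries were above both summer libraries in the first solution, and in the second winter library B was the lowest of all 4. The log2 ratio without 1 library lay between -1.23 and 1.03.

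**Figure D2:**
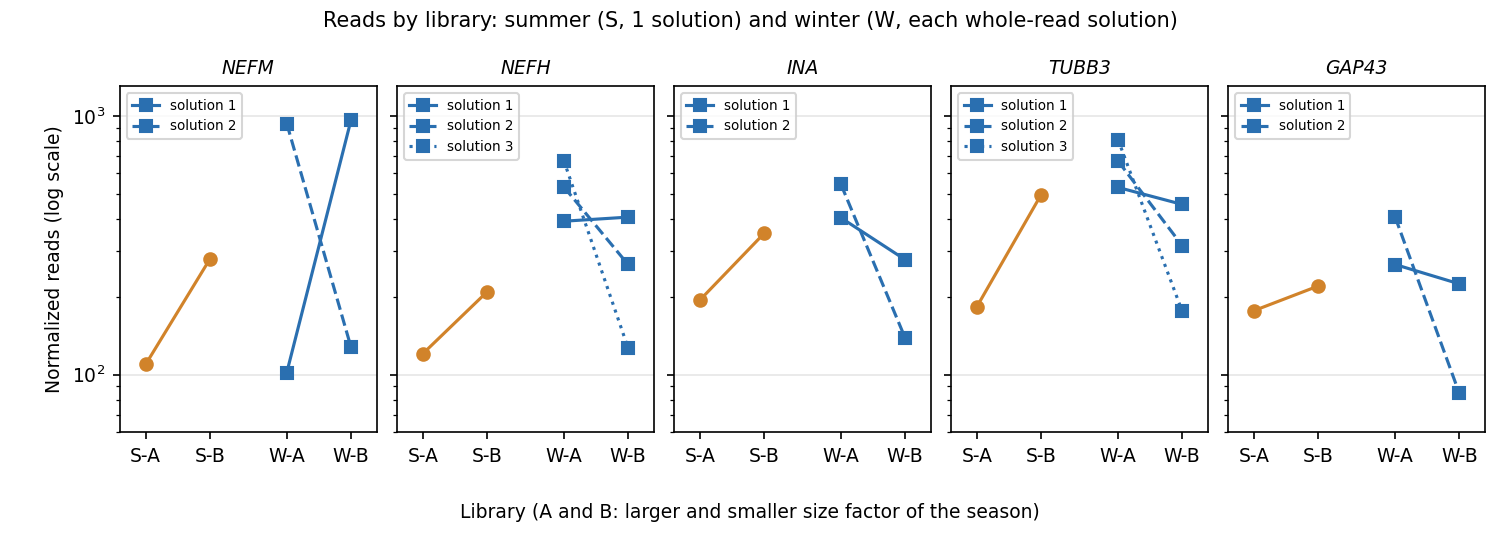
Normalized reads (log axis) of NEFM, NEFH, INA, TUBB3 and GAP43 in summer libraries A and B (circles) and winter libraries A and B (squares), with 1 line for each pair of whole reads that gives the winter mean. NEFM has 1 high winter library (960 or 934) and 1 low one (102 or 128) in both solutions, and INA, TUBB3 and GAP43 are lower in winter library B than in A in every solution.

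The 5 genes shared a pattern between the libraries of summer. All 5 were higher in summer library B than in A, by log2 0.31 for GAP43, 0.79 for NEFH, 0.85 for INA, 1.35 for NEFM and 1.43 for TUBB3. Of 5716 symbols with a single summer solution and a summer mean of at least 100, 43.1% were higher in library B, and the quartiles of their log2 ratio were -0.42 and 0.29. The share was 41.8% of the 4497 symbols with 1 summer and 2 or 3 winter solutions, like the members, but 61.7% of the 7676 symbols with single solutions in both seasons, whose means are mostly lower. Among the 5716 symbols, NEFM and TUBB3 were at the 97.1st and 97.5th percentiles of this ratio. INA and NEFH were at the 92.5th and 91.4th of them, and GAP43 at the 76.5th. The pattern was noticed after the values were seen, and the same libraries gave all 5 values. By size factor alone, library A would be summer replicate 2, which had reads on 40178 gene models, against 52456 for replicate 1. The part of this difference in the pattern was not tested.

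**Figure D3:**
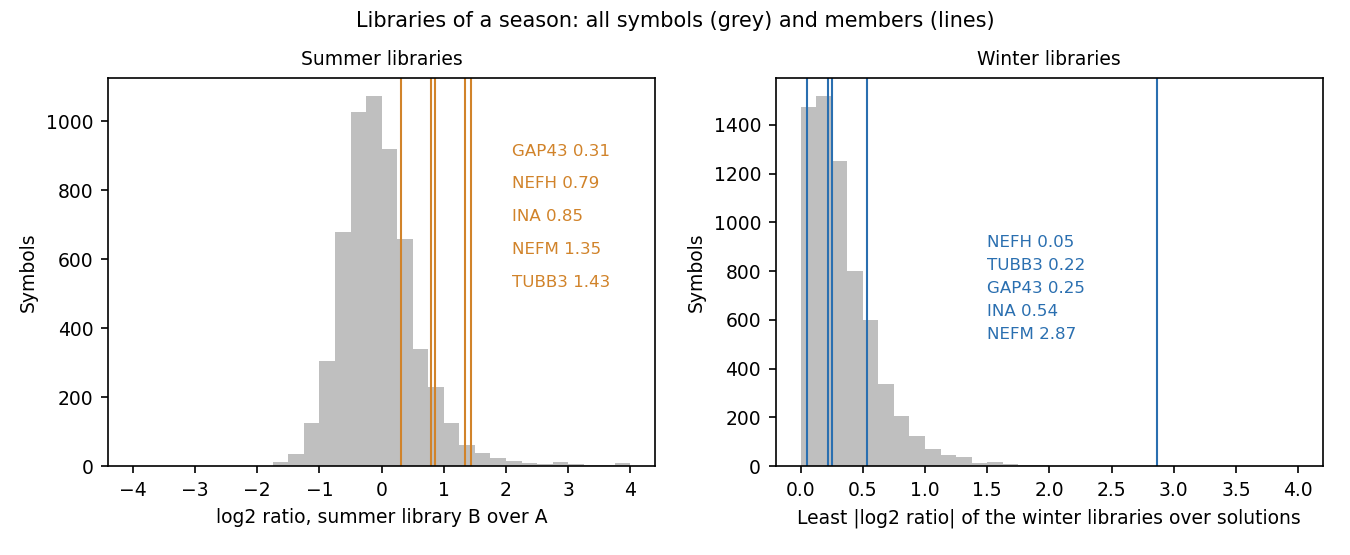
Number of symbols (grey bars) by the log2 ratio of summer library B over A (left; 5716 symbols with a mean of at least 100) and by the smallest absolute log2 ratio of the winter libraries over their solutions (right; 6514 symbols), with a line at each of the 5 members. All 5 members are on the side of library B in summer, and in winter NEFM stands at 2.87, the farthest of the 6514, while the other 4 are between 0.05 and 0.54.

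In winter the order was opposite for INA, TUBB3 and GAP43, which were higher in library A in every solution. Being higher in summer library B and in winter library A was seen in every solution for 3 of 5 members, against 8.16% of 4497 symbols with 2 or 3 winter solutions. None of the 5 had it at 2-fold or more in both seasons in every solution (0.111% of these symbols). NEFM and NEFH had this order in some of their solutions. Of 40 related cytoskeletal, growth and neuronal genes with single solutions in both seasons, 21 had it (52.5%), against 34% of 7676 symbols. Of these 40 genes, 25 were higher in summer library B (62.5%, against 61.7% of the 7676) and 33 in winter library A (82.5%, against 53.4%). Markers of astrocytes, microglia and endothelium had the order in 6 of 10 genes with single solutions (ALDH1L1, AQP4, SLC1A3, TMEM119, CLDN5 and CDH5). These counts take a difference of any size. AQP4 had 9 reads in each summer library and differed there only by the size factors. CDH5 was near equal in winter (37.7 and 36.0 normalized), as TMEM119 was in summer (56.4 and 61.6). By the criterion applied to the members, every one of 2 or 3 winter solutions, it was seen in 8 of 46 related genes (17.4%) and 0 of 4 markers of other cell types. The part of cell composition in the spread of the members was not tested.

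The nearest relatives with single solutions showed the library order in full. STMN3, a stathmin that binds free tubulin like the unmeasured STMN2, had 104 and 352 normalized reads in summer libraries A and B, and 324 and 97.3 in winter libraries A and B. TUBB2A, a beta-tubulin of neurons, had 42.3 and 148 in summer and 195 and 59.2 in winter. Peripherin, the product of PRPH and a filament partner of the neurofilaments, had 0 and 94 reads in summer and 106 and 7 reads in winter. In each of these, the seasons overlapped because 1 library of each season was high and the other low.

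The same order was seen in CDK5, SNAP25 and THY1, chosen after their values were seen. CDK5, a kinase of neurofilament tails and tau, had 40.1 and 115 normalized reads in summer and 130 and 60.3 in winter. SNAP25, a synaptic fusion protein, had 79.2 and 199 in summer and 352 and 122 in winter. THY1, a glycoprotein of neuronal surfaces, had 142 and 369 in summer and either 716 and 146 or 856 and 6.35 in winter. At 2-fold or more in both seasons, 7 of the 40 related genes had this order (17.5%), against 4.18% of the 7676 symbols. Of 10 markers of other cell types with single solutions, 1 had it at that size (ALDH1L1). In every one of 2 or 3 winter solutions, 1 of 46 related genes had it (THY1, 2.17%), against 0.111% of 4497 symbols.

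DCX and RBFOX3 had the same library order, but their seasons did not overlap. DCX, a microtubule protein of young and migrating neurons, had 28.2 and 36.5 normalized reads in summer and 48.3 and 46.5 in winter, with both winter libraries above both summer libraries. RBFOX3, which encodes the neuronal nuclear antigen NeuN, had 15.2 and 33.1 in summer and 53.6 and 37.0 in winter. Both had few reads.

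**Figure D4:**
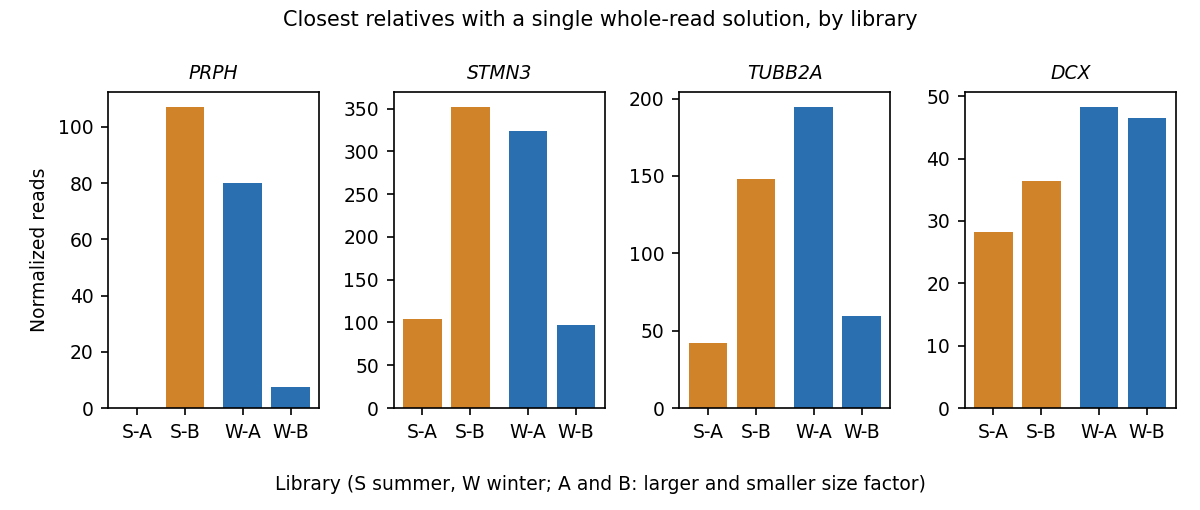
Normalized reads of PRPH, STMN3, TUBB2A and DCX in the 4 libraries, as bars from 0, with summer libraries A and B in orange and winter libraries A and B in blue. PRPH, STMN3 and TUBB2A are high in summer library B and winter library A and low in the other pair, and for DCX both winter bars (48.3 and 46.5) are above both summer bars.

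A test across genes could be made only where reads were single in both seasons, which left out all members. edgeR's quasi-likelihood test on 7676 such genes gave 128 past a 2-fold difference with an unadjusted p under 0.05 (1.67%), and 0 with a Benjamini-Hochberg adjusted p under 0.05, with 152 at an unadjusted p under 0.05. The exact test of edgeR and DESeq2 each gave 1 at the adjusted threshold, and limma-voom gave 0. None of the 40 related genes passed either rule, and their lowest adjusted p by the quasi-likelihood test was 0.983. Both winter libraries were above both summer libraries in 5 of the 40 (13.3% of the 7676), and both summer libraries above both winter libraries in 5 (17.2% of the 7676). The biological coefficient of variation over the 7676 genes was 0.459.

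The other genes of the neuronal cytoskeleton were read from their season means, in lists of 141 genes in all. Of 129 that reached a mean of 10 in either season, 90 were higher in winter (69.8%, against 46.2% of all symbols), with a median log2 ratio of 0.19. They were more than 2-fold higher in 4 cases (CAMSAP3, MAP7D1, TTBK1 and TUBB4A; 3.1%, against 2.72% of all symbols) and more than 2-fold lower in 3 (ATF3, GPM6A and VIM; 2.3%, against 4.53%), of which CAMSAP3 and ATF3 are named for these counts after their values were seen.

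Of 10 genes listed with the other intermediate filaments, 6 were higher in winter, with a median log2 ratio of 0.037. Of these 10, DST (0.20) and PLEC (0.049) encode linkers of filaments and not filament proteins, for which they are named here. Both are among the genes higher in winter, so the count and the median are not those of filament genes alone. The highest was LMNB2, a nuclear lamin, at 0.44. The lowest was VIM, the filament of glia and precursor cells, with means of 367 and 165 (log2 ratio -1.16). NES was at 0.19 and PRPH at -0.29. In these season means NEFM, NEFH and NEFL had higher ratios than each of these 10 genes, and INA did not. DES, also in the list, did not reach a mean of 10 (4.39 and 8.61), and its log2 ratio of 0.97 was above that of NEFL. The members were chosen with these means in view, so this is a description only.

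Of 14 other tubulins, 10 were higher in winter (9 when scaled by the column total), with a median of 0.13. TUBB4A, a beta-tubulin of neurons and oligodendrocytes, had means of 343 and 762 (log2 ratio 1.15), and TUBD1, the delta-tubulin of centrioles, was lowest at -0.75. Of 15 genes of tubulin folding and modification, 8 were higher in winter, with a median of 0.063, from AGTPBP1, which trims glutamates from tubulin tails, at -0.37 to the folding cofactor TBCB at 0.46.

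Of 25 other microtubule-associated proteins, 15 were higher in winter, with a median of 0.19. MAP7D1, which recruits kinesin to microtubules, had means of 699 and 1471 (log2 ratio 1.07), and the severing enzyme SPAST was lowest at -0.35. MAP1A, the axonal and dendritic protein of mature neurons, was at 0.62 (5528 and 8506), whereas MAP1B, its relative of growing axons, was at 0.06 (897 and 935). Among the 13 kinases of tau and neurofilaments, 9 were higher in winter, with a median of 0.072, from MARK3 at -0.50 to the tau-tubulin kinase TTBK1 at 1.18 (56.6 and 128).

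Of 8 other stathmins and collapsin response mediators, 5 were higher in winter, with a median of 0.096. STMN1, a tubulin-sequestering stathmin of many cells, was lowest at -0.69 (1226 and 758), and STMN3 and STMN4 were at -0.12 and 0.07. DPYSL2, which promotes microtubule assembly in axons, was highest at 0.49. Of 15 genes of the growth cone and axon regrowth, 10 were higher in winter, with a median of 0.32, equal to that of the members. BASP1, a membrane protein of growth cones like GAP43, had means of 331 and 629 (log2 ratio 0.93), and GPM6A, a neuronal membrane glycoprotein, was lowest at -1.94 on low means of 14.8 and 3.85.

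All 12 genes of the axonal spectrin and ankyrin scaffold, which lines the axon membrane, had a higher mean in winter, with a median of 0.28. They ran from ADD3, an actin-capping adducin, at 0.05 to EPB41L1, which links spectrin to the membrane, at 0.74. Of 16 other pan-neuronal genes, 14 were higher in winter and 8 were more than 1.5-fold higher, with the highest median of the lists, 0.60. They ran from ELAVL2 at -0.59 (493 and 327) to RBFOX3 at 0.91 (24.1 and 45.3). The higher winter means of the members thus stood beside higher winter means of neuronal genes outside the cytoskeleton.

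Markers of other cells were checked in the same means. The 7 astrocyte markers had a median of -0.65, with a summed mean of 37897 in summer and 22987 in winter, 3 of them higher in winter. Most of both sums came from GFAP (25074 and 14423) and S100B (11788 and 7490). The 3 that were higher in winter were SLC1A2, SLC1A3 and ALDH1L1. The 6 oligodendrocyte markers had a median of 0.23 and sums of 33482 and 37187, with 5 higher in winter. Of 7 microglia markers 2 were higher in winter, with a median of -0.26 and sums of 7338 and 5323, and of 7 endothelial markers 2 were, with a median of -0.12 and sums of 1585 and 1474. No marker of these lists was at 0 in a season mean, and the symbol C1QA of microglia was not among those listed. Oxytocin (OXT), a defining product of the nucleus, had means of 592 and 621. The symbol AVP was not among those listed either, so no value is given for it. The part of the cell mixture in the season means of the members was not tested.

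**Figure D5:**
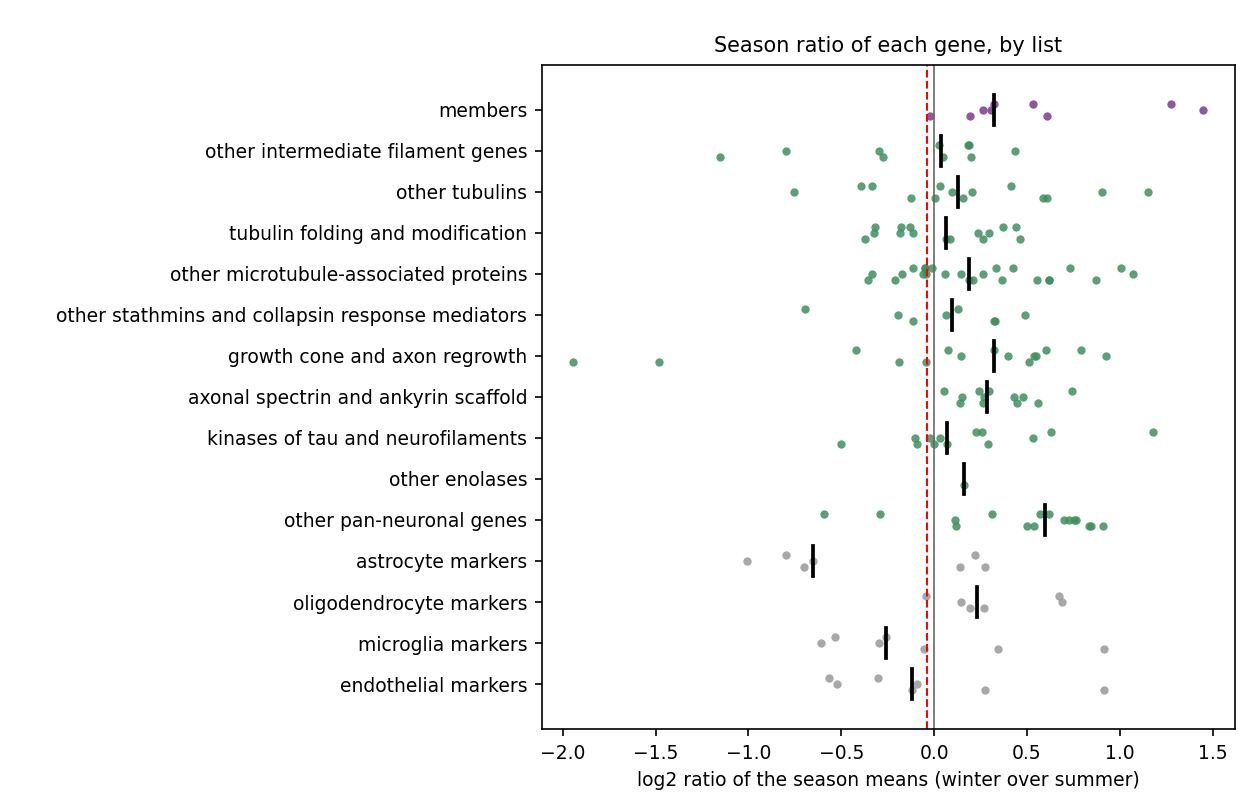
Log2 ratio of the season means (winter over summer) of each gene that reached a mean of 10 in either season, by list, with members in purple, related genes in green and markers of other cell types in grey. Black bars are list medians (0.32 for the members, 0.60 for other pan-neuronal genes, -0.65 for astrocyte markers), the solid line is 0 and the dashed line is the median of all symbols, -0.036.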

How the data were processed

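Total RNA of the supraoptic nucleus was sequenced after depletion of ribosomal RNA with a stranded kit. The authors used TopHat to align reads to a dromedary assembly of their own and HTSeq to count them (versions not given in the sources used here), and the deposited counts are raw reads per gene model. Their last 5 rows are tallies and were left out. These gene models are not paired with names. The deposited table gives, per symbol, a signal, the authors' mean over the 2 libraries of a season of counts divided by DESeq size factors. Its columns of fold changes and p-values, the authors' own comparison, were not used.

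Step sizes of 1 read were estimated per library from the season means, and all pairs of whole reads that gave a mean to 6 digits were listed: 100% of 16053 symbols had at least 1 pair, and 9921 a single pair in both seasons. The method was tested on simulated data. Ratios of libraries within summer have a pseudocount of 0.5; season ratios have none. For 7676 symbols with single pairs that reached a mean of 10 in either season, edgeR 4.0.16 tested the recovered reads (quasi-likelihood test, Benjamini-Hochberg adjustment, R 4.3.3), with DESeq2 1.42.0 and limma 3.58.1 as alternatives. This selection favours low winter means. The design assumed that members with single pairs could be tested by library; none had them in both seasons.

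Members and lists were chosen with earlier results of these data known. Beside all members, the text names the highest and lowest gene of each list and 12 close relatives, unless a sentence says otherwise. Nothing in the labels says more of the replicates than their numbers, so p-values measure the spread between these samples. Read totals and pairs cover counting error only.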

Additional observations from a re-analysis of the deposited data

How the results depend on the processing

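The number of members higher in winter was 8 of 9 under scaling by the column total or the upper quartile and 9 of 9 when the median of all symbols was set to 0, which shifted every log2 ratio by 0.036; MAP2 was the gene that changed sign. The other limit is 2 libraries a season: with 1 library left out (chosen after seeing the data), the log2 ratio lay between -0.93 and 2.30 for NEFM, with -0.60 as the other negative value, and between -0.37 and 2.03 for NEFH, the negative values arising without 1 winter library. INA lay between -0.98 and 1.00, TUBB3 between -0.95 and 1.42 and GAP43 between -1.23 and 1.03. NEFL, MAP2, MAPT and ENO2 could not be treated this way, and no member had single solutions in both seasons for the planned form of it.

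Of 7676 genes with recovered reads, 128 passed the 2-fold rule and 0 the adjusted threshold. The counts were 60 and 1 with DESeq2, 83 past the rule with limma-voom, 1 at the adjusted threshold with the exact test, and 80 past the rule with a mean of at least 10 in both seasons. Scaling by total reads turned the split of 65 higher and 63 lower into 122 and 46. With 1 library left out, 35 to 1172 passed the rule (1121 without summer library A, 1172 without B, 35 and 49 without winter library A and B) and 0 to 290 the adjusted threshold (290 and 228 without summer library A and B); the season left with 1 library is then assumed to vary like the other. The share of all symbols past 2-fold, 7.26%, was 12.9% with no filter, 3.92% with a mean of at least 10 in both seasons, 0.932% with at least 100 in both, and 14.3% to 26.1% with 1 library left out. The cause of these differences was not tested. No paired analysis was possible because the seasons share 1 replicate number only.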
